A study of Mus musculus with 6 samples.

Results

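HA-Tex10 intervals were centred at or just inside the start of H3K4me3-marked genes at 576 places in mouse primordial germ cell-like cells. Each of these places is an interval of the deposited HA-Tex10 list on chromosomes 1 to 19 that shares at least 1 bp with an H3K4me3 interval. Its centre lies 0 to 1000 bp into the gene from the nearest transcription start site (TSS) of a protein-coding transcript. Crowded 1 Mb windows, here called dense, with at least 10 intervals of the HA-Tex10 list were not used. The 576 intervals are 13.3% of the 4331 in the HA-Tex10 list, and they lie at 561 genes. They were selected on position and on overlap with H3K4me3, so these features are described below without a test.

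The cells, primordial germ cell-like cells or PGCLCs at day 2, are cultured cells that resemble the embryonic founders of eggs and sperm. They were of strain 129Sv/J and untreated. In all of them Tex10 carried an HA tag at its C terminus. Chromatin immunoprecipitation and sequencing (ChIP-seq) was done with an HA-tag antibody (Abcam, ab9110) in 2 samples and with an H3K4me3 antibody (Abcam, ab8580) in 2 samples, and 2 samples were input DNA, which makes 6 in all. The lists hold 1 set of intervals per antibody, with no score, height or p-value. There is therefore no spread between replicates, the depth of the samples is unknown, no test compares samples, and every value below describes these lists. The labels do not say how many clones or cultures the samples came from.

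Tex10 is a nuclear protein of a complex with Pelp1, Wdr18, Senp3 and Las1l that serves the maturation of the large ribosomal subunit in the nucleolus, and in embryonic stem cells it is also known as a partner of the pluripotency factor Sox2. H3K4me3, trimethylation of lysine 4 of histone H3, marks the start of genes that are active or poised. In mammalian promoters the mark is centred on the nucleosomes that follow the TSS, and RNA polymerase II often pauses in the same stretch before it enters productive elongation.

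Short stretches inside the intervals show what sequence lies under them. All are on GRCm38, read from the RefSeq GRCm38.p6 sequence, printed 5′ to 3′ on the gene's strand, with coordinates that count from 1. The first group shows 30-base sites that hold the YY1 motif (AAGATGGCG or its reverse complement, in capitals), chosen because the match lies nearest to the interval's centre. Ep300 encodes a histone acetyltransferase, Taf6 a subunit of the general factor TFIID, and Bscl2 the lipid droplet protein seipin.
Ep300, chr15:81585381-81585410, plus strand: aaacaacagcCGCCATCTTgtttgtgtgct
Taf6, chr5:138187191-138187220, minus strand: gggcggggccAAGATGGCGccgagcgccgg
Bscl2, chr19:8837461-8837490, plus strand: aacaggcagcCGCCATCTTgggcattggct

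The second group shows 3 of the motifs more frequent under the intervals than in equally long windows 108 bp into marked genes without HA-Tex10. They are NRF1 (GCATGCGC) at the acetyl-lysine reader Brd2 and at Fnbp4, CREB (TGACGTCA) at the condensin subunit Ncaph2 and at Saraf, a regulator of calcium entry, and NFY (CCAATCA) at the RNA polymerase II subunit Polr2j and in the narrower interval at the ribosomal protein gene Rpl36. The excess depends on where the background window lies. Among the 162 intervals centred in the first 50 bp, NRF1 was in 7.41% and CREB in 6.79%. Background windows at 25 bp had 3.44% and 2.52%, a difference beyond counting error. NFY was in 6.17% against 6.02%. From 50 to 100 bp NRF1, CREB and NFY were in 2, 1 and 2 of 111 intervals. These shares were below those of background windows at 75 bp, but within counting error. Capitals mark the match on either strand.
Brd2, chr17:34122604-34122633, minus strand: cacacccttgcGCATGCGCtatgtgtttcg
Fnbp4, chr2:90745444-90745473, plus strand: gggcgcaggccGCATGCGCaagtgcaccgc
Ncaph2, chr15:89355704-89355733, plus strand: ctgggcccgccTGACGTCAtacgtgtgcgc
Saraf, chr8:34154570-34154599, plus strand: cgcagcggcagTGACGTCAgattggcgcag
Polr2j, chr5:136116639-136116668, plus strand: ggtgcttacacTGATTGGctgcggctgaga
Rpl36, chr17:56613796-56613825, plus strand: ggcccggtcgtTGATTGGgcgtctgagact

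The third group shows longer stretches of intervals at genes of 3 lists that meet no annotated exon. The first 3 start with the first base of the first intron, at the splicing factor gene Srsf7, the spliceosomal Sm protein gene Snrpd3 and the cyclin T2 gene Ccnt2, whose product pairs with Cdk9 to release paused polymerase. The others end at the base before the TSS, at the ribosomal protein genes Rps29 and Rplp2. Capitals mark the SP GC box (GGGGCGGGG) at Srsf7, CREB at Rps29 and the E-box (CACGTG) at Rplp2.
Srsf7, chr17:80206945-80207174, minus strand: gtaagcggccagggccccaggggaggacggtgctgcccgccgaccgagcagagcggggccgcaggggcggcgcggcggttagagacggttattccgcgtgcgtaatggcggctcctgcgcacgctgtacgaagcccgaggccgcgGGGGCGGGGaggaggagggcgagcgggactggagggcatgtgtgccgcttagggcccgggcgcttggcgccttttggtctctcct
Snrpd3, chr10:75518126-75518413, plus strand: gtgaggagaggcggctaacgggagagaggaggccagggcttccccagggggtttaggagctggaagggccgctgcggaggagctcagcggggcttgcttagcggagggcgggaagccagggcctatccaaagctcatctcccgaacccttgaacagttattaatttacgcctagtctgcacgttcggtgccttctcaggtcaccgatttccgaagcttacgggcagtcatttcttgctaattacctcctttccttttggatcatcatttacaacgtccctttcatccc
Ccnt2, chr1:127774386-127774659, plus strand: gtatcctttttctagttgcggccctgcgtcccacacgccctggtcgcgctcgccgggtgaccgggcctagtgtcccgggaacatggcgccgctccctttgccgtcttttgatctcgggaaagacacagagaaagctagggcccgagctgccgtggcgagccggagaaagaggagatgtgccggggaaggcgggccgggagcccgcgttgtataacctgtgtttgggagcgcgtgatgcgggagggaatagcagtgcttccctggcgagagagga
Rps29, chr12:69159187-69159294, minus strand: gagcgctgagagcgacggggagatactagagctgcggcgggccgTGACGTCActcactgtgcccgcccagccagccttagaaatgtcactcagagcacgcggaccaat
Rplp2, chr7:141447742-141447849, plus strand: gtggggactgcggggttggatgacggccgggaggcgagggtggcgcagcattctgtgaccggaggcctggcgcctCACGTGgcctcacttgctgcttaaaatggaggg

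The intervals gathered close to the start site. The median centre lay 108 bp into the gene (95% interval of the median 96 to 119 bp, n = 576), with quartiles at 41.75 and 215 bp. Of the 576, 273 (47.4%) had their centre less than 100 bp and 414 (71.9%) less than 200 bp from the TSS, and 40 (6.94%) lay at 500 bp or more. Intervals of the list with H3K4me3 on the other side of the TSS, chosen by the same criteria from 1000 to 1 bp upstream, numbered 617, and their median centre was at -132 bp. The numbers fell away on both sides of the start, and no separate peak marked the downstream side. Before the dense windows were left out the counts were 761 downstream and 815 upstream.

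**Figure D1:**
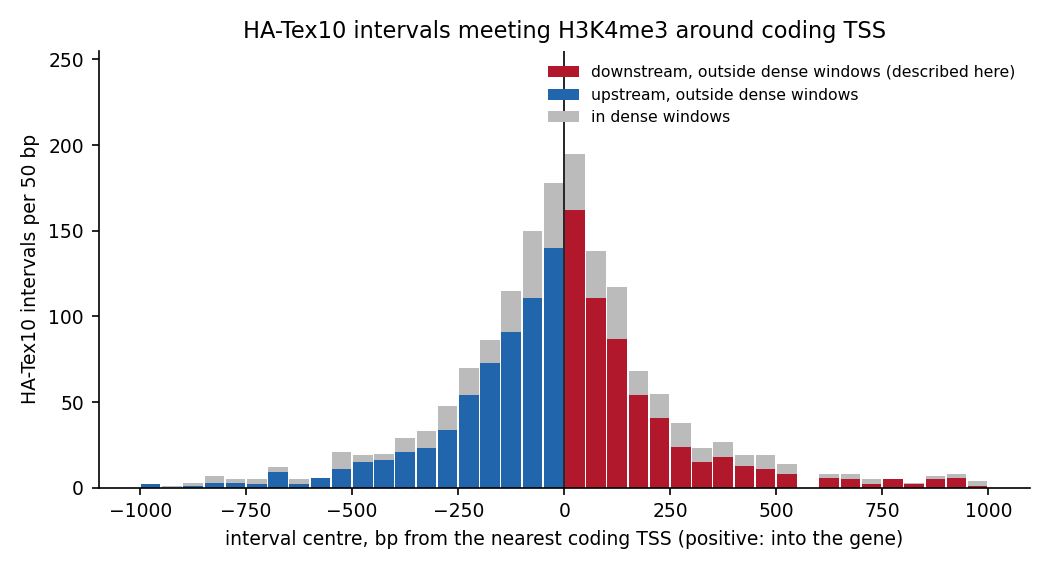
Number of HA-Tex10 intervals meeting H3K4me3 per 50 bp of distance between the interval's centre and the nearest coding TSS. Red bars are the 576 intervals described here, blue bars the 617 upstream ones, and grey tops those in windows of 1 Mb with 10 or more HA-Tex10 intervals; counts are highest in the bins on either side of the TSS and fall outwards.

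The limits of the selection cut through a continuous distribution. The outermost intervals inside were at Jade2 (983 bp), Pcm1 (937 bp) and Sertad3 (921 bp), and the nearest beyond the outer limit were at Prr5l (1028 bp), Eif4ebp1 (1035 bp) and Zbtb1 (1051 bp). At the start site the intervals of Pdhb, Bscl2 and Pigyl were centred on the first transcribed base, at 0 bp, while those of Top3b, Fastk and Cep55 were centred 1 bp upstream and so fell on the other side. The window limit was similar in kind, since windows with 9 HA-Tex10 intervals held 42 qualifying intervals and windows with 10 held 31.

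The division at the TSS parts the centres more sharply than the intervals themselves. The median width was 229 bp (95% interval 219 to 233 bp), from 4 to 774 bp. An interval ran on the median from -3 bp to 233 bp, so that 294 of 576 (51.0%, Wilson 95% interval 47.0 to 55.1%) covered the TSS and 282 (49.0%) lay wholly inside the gene. In the upstream set 47.3% covered it. The share of intervals over a position was 64.8% at 100 bp into the gene and 19.4% at 100 bp upstream. All intervals given here for shares and medians cover counting error only and treat neighbouring genes as independent, which they are not.

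H3K4me3 reached much further than HA-Tex10 on both sides. At the 576 intervals the median H3K4me3 interval was 1609 bp wide (1536 to 1709 bp) and ran from -413 bp to 1111.5 bp. It spanned the TSS at 508 of them (88.2%). The upstream set sat in H3K4me3 intervals of 1780 bp from -662 bp to 1092 bp, and the marked genes without HA-Tex10 (n = 10279) had 1246 bp from -262 bp to 936 bp. The upstream edge of the mark thus lay 249 bp nearer to the TSS than in the upstream set, while the downstream edges differed by 19.5 bp. The selection on overlap favours wide H3K4me3 intervals in both HA-Tex10 sets. It also favours an interval that reaches the side on which HA-Tex10 was chosen. The part of this selection in the widths and edges was not tested.

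Most of the HA-Tex10 intervals were contained in the mark. Of the 576, 491 (85.2%, 82.1 to 87.9%) lay wholly inside an H3K4me3 interval, compared with 75.4% (71.8 to 78.6%) of the upstream set. Of the 85 that did not, 65 passed the upstream edge of the mark, 18 its downstream edge and 2 both. At Brd2 the 660 bp interval ran from -315 to 344 bp, and its H3K4me3 interval, chr17:34122762-34124320, lay wholly upstream of the TSS. Only 29 HA-Tex10 intervals met every other criterion but shared no base with H3K4me3.

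**Figure D2:**
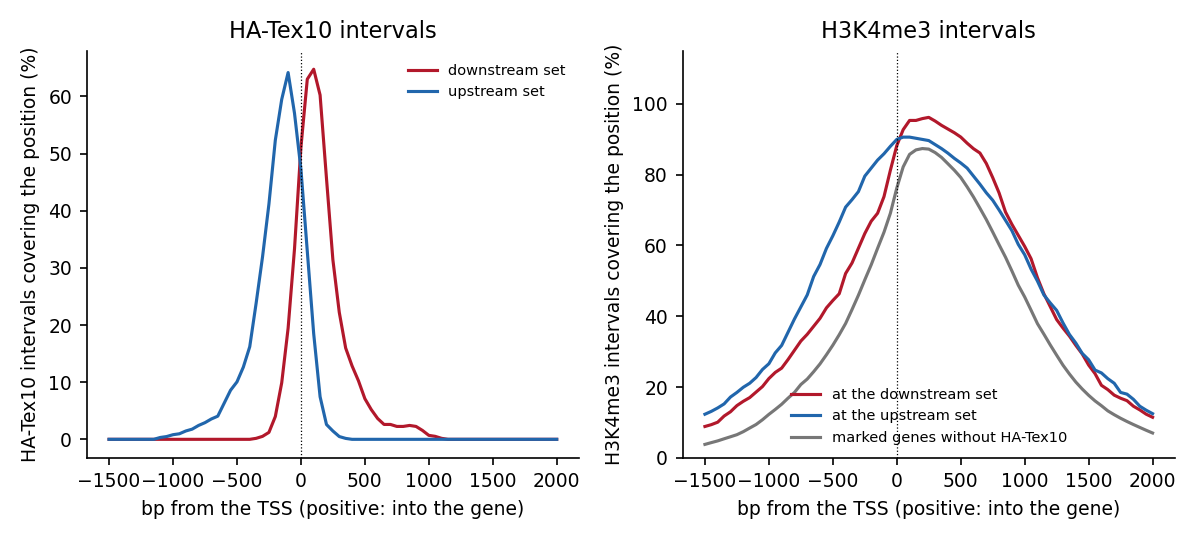
Share of intervals (%) that cover each position from 1500 bp upstream to 2000 bp into the gene, for HA-Tex10 (left) and for the H3K4me3 interval they meet (right). The downstream set (red) peaks 100 bp into the gene at 64.8%; H3K4me3 at these genes covers 95.3% of cases there and is lower 500 bp upstream (44.4%) than at the upstream set (blue, 62.7%), with marked genes without HA-Tex10 in grey (31.8%).

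The wider the mark, the more often a gene held a downstream interval. When the 11723 marked genes outside dense windows were put into 4 groups by the width of their H3K4me3 interval, the share with a downstream HA-Tex10 interval was 2.22% in the narrowest, 4.299% and 5.39% in the next, and 7.24% in the widest. The upstream set gave 2.11, 3.72, 5.67 and 8.98% in the same order. H3K4me3 intervals of 3000 bp or more were met by 64 of the 576 (11.1%, 8.80 to 13.9%), against 13.8% of the upstream set and 5.31% of marked genes without HA-Tex10. Wide intervals also meet others more often by their length alone, and the part of length in these shares was not tested.

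The centres fell mainly in the first exon. Of 576, 306 (53.1%) lay in an untranslated part of the first exon and 82 (14.2%) in its coding part, 173 (30.03%, 26.4 to 33.9%) in the first intron, 10 in a later exon and 5 in a later intron. The annotation depends on distance, since first exons at these genes ended at a median of 194 bp (179 to 207 bp), and at 232 bp (228 to 236 bp) in marked genes without HA-Tex10. The comparison with those genes was therefore made within classes of distance, with background windows placed at 1 position in each class.

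Close to the start, the intervals lay in the first intron more often than that background. Between 50 and 100 bp 18.02% (11.98 to 26.2%, n = 111) were in the first intron against 7.74% of background positions at 75 bp. Between 100 and 200 bp the shares were 37.6% (30.02 to 45.8%, n = 141) and 28.5% at 150 bp. Between 200 and 400 bp the share was 55.1% (45.2 to 64.6%, n = 98), an interval that holds the 60.1% of the background at 300 bp. Between 400 and 1000 bp the shares were 67.2% (55.0 to 77.4%, n = 64) and 78.5% at 700 bp. In these 2 classes many intervals lay nearer to the TSS than the background position, with 65 of the 98 below 300 bp and 24 of the 64 below 500 bp. The part of this placement was not tested. The background was read from the outermost marked TSS of each gene and the intervals from their nearest TSS, so the 2 differ in the choice of transcript. At genes with 1 annotated TSS, 25.6% of 176 intervals were in the first intron. The end of the first exon lay inside 241 of the 576 intervals (41.8%). It lay inside 47.7% of windows of the median width, 229 bp, at the median position in marked genes without HA-Tex10.

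Base composition was that of CpG islands, the GC-rich stretches that cover most mammalian promoters. The central 200 bp had a median GC content of 64.5% (63.5 to 65%) and a ratio of observed to expected CpG of 0.807 (0.784 to 0.825). Windows at the same median position in marked genes without HA-Tex10 had 67.5% and 0.845, and the upstream set 62.5% and 0.759. The distance profile was flatter under HA-Tex10 than in the background. Beyond 400 bp GC content was 61.25% (59 to 64%) against 52.5% in background windows, and the CpG ratio 0.691 against 0.496, whereas in the first 50 bp GC content was 64% against 67%. The intervals had to meet H3K4me3, while the mark covered the background position at 700 bp in 67.3% of marked genes without HA-Tex10. Of the 64 intervals beyond 400 bp, 24 lay below 500 bp, nearer to the TSS than that position. The part of both choices in these values was not tested.

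Short motifs were counted in the central 200 bp, on both strands. The motif of YY1, a zinc finger factor whose sites are known to lie just downstream of start sites, was found in 18 of 576 intervals (3.13%, 1.99 to 4.89%). It was found in 2.11% of the upstream set, 2.77% of marked genes without HA-Tex10 and 2.89% of all 11723 marked genes. These shares overlap in their counting intervals. The 18 matches lay at a median of 19 bp from the TSS, from -82 to 257 bp, and 14 of them read AAGATGGCG on the gene's strand. Besides the genes printed above, the genes with this motif included Rps3, Pdhb, Abce1 and Atp5a1.

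NRF1, CREB and NFY motifs, bound by factors that serve housekeeping, cyclic AMP-responsive and CCAAT-box promoters, were more frequent in the downstream set than in the single background window, but so were they in the upstream set, which held still more. NRF1 was in 22 intervals (3.82%, 2.54 to 5.72%), against 1.20% of marked genes without HA-Tex10, 1.28% of all marked genes and 6.16% of the upstream set. CREB was in 12 (2.08%, 1.20 to 3.61%), against 0.486%, 0.495% and 3.08%. NFY was in 19 (3.30%, 2.12 to 5.09%), against 1.32%, 1.42% and 6.97%. The single background window sits 108 bp into the gene, and in background windows at 25 bp all 3 motifs were more frequent than there. The part of placement in these counts was not tested. In the first 50 bp, with background windows at 25 bp, NFY was in 6.17% of 162 intervals and 6.02% of background windows. CREB was in 6.79% (3.83 to 11.7%) against 2.52%, and NRF1 in 7.41% (4.29 to 12.5%) against 3.44%. From 50 to 100 bp the order was the other way, but on few matches. CREB was in 1 of 111 intervals (0.901%, 0.159 to 4.93%) against 1.498%, and NRF1 in 2 (1.80%, 0.496 to 6.33%) against 2.21%. Both counting intervals hold the background share. Beyond 100 bp CREB was in 0 intervals, while NRF1 was in 3 of 141, 3 of 98 and 2 of 64 in the next classes, against 0.817, 0.671 and 0.370%.

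The E-box, bound by basic helix-loop-helix factors, was in 34 intervals (5.90%, 4.25 to 8.14%), against 3.66% (3.31 to 4.04%) of marked genes without HA-Tex10, 3.76% of all marked genes and 7.78% of the upstream set. This excess was over the single background window, and within the distance classes the counting intervals met in every class. In the first 50 bp the E-box was in 9.26% (5.69 to 14.7%) of 162 intervals, against 6.86% (6.39 to 7.36%). From 50 to 100 bp it was rarer, in 4 of 111 intervals against 5.02%, and in the classes beyond it was more frequent. For the other motifs the counting interval of the downstream set met that of the single background window. The SP GC box was in 43 intervals (7.47%, 5.59 to 9.90%), in 14.4% (11.9 to 17.4%) of the upstream set, in 6.31% of marked genes without HA-Tex10 and in 6.20% of all marked genes. In the class from 100 to 200 bp it was in 2 of 141 intervals (1.42%) and 6.06% of background windows. ETS (CCGGAAGT) was in 19 (3.30%), against 3.02% and 3.09%, and ZNF143 (ACTACAATT) in 0, which allows up to 0.521% if the limit is set at 3 counts of the total, against 0.0486% and 0.0512%. The motifs of AP-1 (TGAGTCA), of a core promoter box (TATAAA), of OCT factors (ATGCAAAT) and of CTCF (AGGGGGCGC) were in 11, 7, 2 and 4 intervals, or 1.91, 1.22, 0.347 and 0.694%, against 1.36, 1.75, 0.256 and 1.06% of all marked genes. In 36 intervals 2 or more different motifs were found, and in 5 of these matches of different motifs shared a base, none of them in a YY1, NRF1 or NFY match. The E-box and CREB letters read the same on both strands. A match here is a description of the letters and not of a bound factor.

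A splice donor motif (GGTGAGT), the exon end with the start of the intron, was in 41 intervals (7.12%, 5.29 to 9.51%), 37 times on the gene's strand and 5 times on the other. It was in 7.80% of marked genes without HA-Tex10, 7.86% of all marked genes and 3.57% (2.37 to 5.34%) of the upstream set. The matches lay at a median of 118 bp from the TSS (70 to 177 bp). The counting intervals of the downstream and upstream sets overlap at their ends. The downstream share did not differ from windows at the same place in other marked genes beyond counting error. The 2 sets were split by position, and the end of the first exon lay inside 41.8% of downstream and 7.62% of upstream intervals. The part of position in the motif's shares was not tested.

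**Figure D3:**
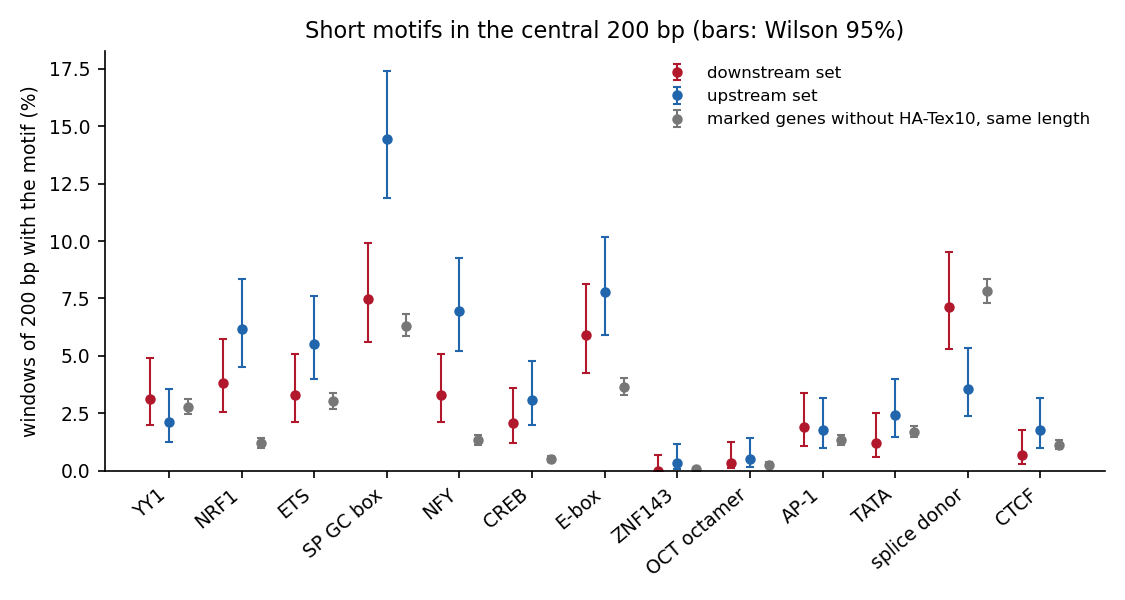
Share of 200 bp windows (%) with each of 13 short motifs, for the downstream set (red, n = 576), the upstream set (blue, n = 617) and marked genes without HA-Tex10 (grey, n = 10279, window 108 bp into the gene), with Wilson 95% intervals. NRF1, NFY and CREB are lowest in grey and highest in blue; the splice donor is lowest in blue.

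Genes of the ribosome, of splicing and of RNA polymerase II held downstream intervals more often than marked genes at large. Among the 11723 marked protein-coding genes outside dense windows, 561 (4.79%, 4.41 to 5.19%) held one, which is the background for the counts that follow. Of 66 marked genes for cytosolic ribosomal proteins, 18 did (27.3%, 18.003 to 39.04%), of 59 for splicing factors and hnRNPs, 12 (20.3%, 12.04 to 32.3%), and of 55 for RNA polymerase II and general factors, 11 (20%, 11.6 to 32.4%). An upstream interval was held by 6 (9.09%), 7 (11.9%) and 1 (1.82%) genes of these lists, against 600 (5.12%) of all marked genes. That ribosomal protein genes carry HA-Tex10 was known from these lists beforehand, so this count is not independent of the choice of list. With HA-Tex10 intervals wider than their list's median, the shares were 16.7%, 8.47% and 7.27% where all marked genes gave 2.22%. In all, 69 of the 561 genes were in any of 19 lists, and 492 were in none.

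**Figure D4:**
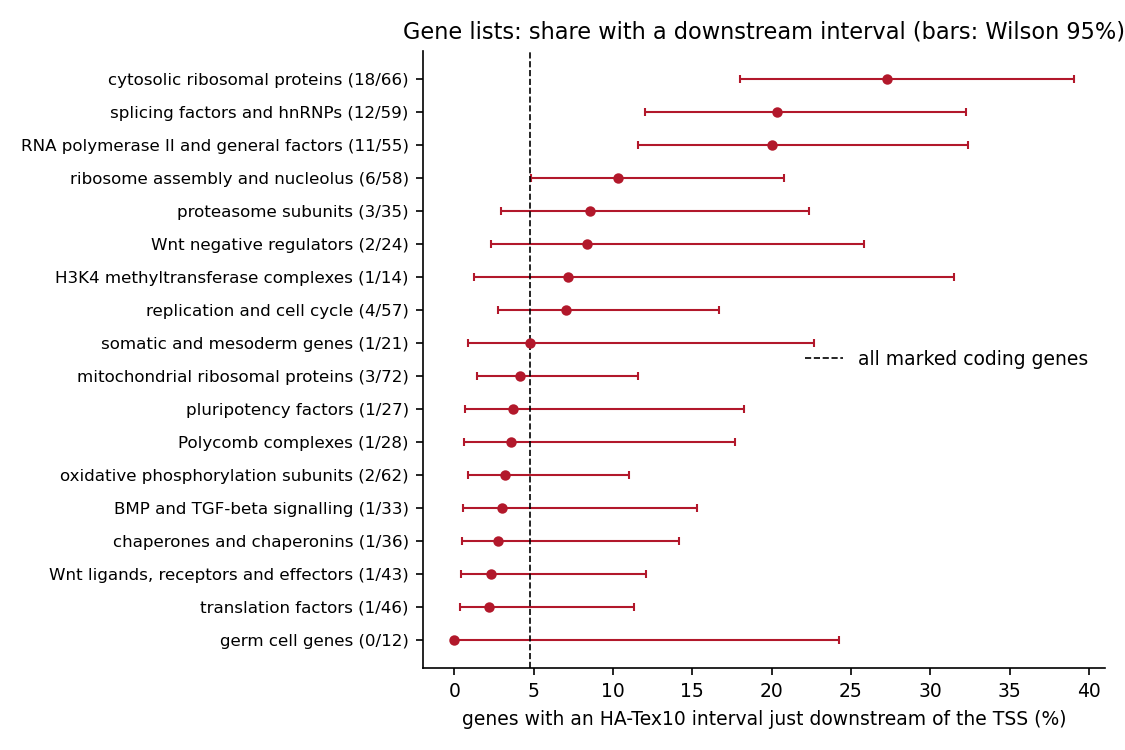
Share of marked genes (%) with an HA-Tex10 interval just downstream of the TSS, for 18 gene lists with at least 10 marked genes, with Wilson 95% intervals and, in brackets, genes with an interval over marked genes. The dashed line is the 4.79% of all marked coding genes; the intervals of the 3 uppermost lists lie to its right, and that of ribosome assembly starts at it (4.83%).

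The ribosomal protein genes were spread over both subunits, with 10 of the small subunit (Rps2, Rps3, Rps3a1, Rps6, Rps7, Rps18, Rps19, Rps25, Rps27a and Rps29) and 8 of the large one (Rpl3, Rpl7a, Rpl11, Rpl15, Rpl21, Rpl23, Rpl36 and Rplp2). Their 19 intervals had a median centre of 118 bp (29 to 200 bp), 11 covered the TSS, 7 were centred in the first intron, and 17 lay wholly inside H3K4me3. The widest was at Rps18 (512 bp, chr17:33955198-33955709, centre 209 bp, first intron) and the narrowest the second interval of Rpl36 (62 bp, centre 408 bp). The H3K4me3 intervals at these genes had a median width of 2566 bp, which is in the widest group of marked genes, and the part of that width in the list's count was not tested. Rps2 (chr17:24720319-24720582, coding first exon) is the uncertain member, since 54.5% of its 32-base words occur more than once in the genome.

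The splicing genes held most of their intervals in the first intron. Of 13 intervals 9 were centred there, the median centre was 205 bp (97 to 408 bp), and 2 covered the TSS (15.4%, 4.33 to 42.2%). The ribosomal protein share covering the TSS was 57.9% (36.3 to 76.9%), and the 95% intervals of both quantities overlap between the lists. The median H3K4me3 interval at the splicing genes was 2200 bp wide, also in the widest group of marked genes. They lay at Srsf1, Srsf5 and Srsf7, which encode serine and arginine-rich splicing factors, at Tra2b, at Hnrnpc, Hnrnpf, Hnrnph1, Hnrnpl and Hnrnpm, whose products coat nascent RNA, and at Sf3a1, Snrpb and Snrpd3, which encode spliceosome components. The widest was at Srsf7 (676 bp, chr17:80206945-80207620), from -317 to 358 bp. Hnrnpl held 2 intervals, in the first introns of transcripts with different starts, 204 and 344 bp from them. The narrowest, at Sf3a1, was 9 bp wide at 334 bp. Among genes with 1 annotated TSS the list's share was 10.5% (2.94 to 31.4%).

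The RNA polymerase II list held intervals close to the start. Its 11 intervals had a median centre of 57 bp (4 to 215 bp), 8 covered the TSS and 3 lay in the first intron. They were at the polymerase subunits Polr2i and Polr2j, at Taf3, Taf6 and Taf8 of TFIID, at Gtf2a1 of TFIIA, at Nelfb and Nelfcd of the negative elongation factor, which holds the paused polymerase, at Ccnt2 of its release factor P-TEFb, at Brd2 and at the Mediator subunit Med23. Brd2 had the widest (660 bp), Taf6 the median (226 bp, chr5:138187098-138187323, centre 4 bp) and Polr2i the narrowest (93 bp, centre 92 bp). At genes with 1 annotated TSS the list's share fell to 4.76% (0.846 to 22.7%), about the background.

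**Figure D5:**
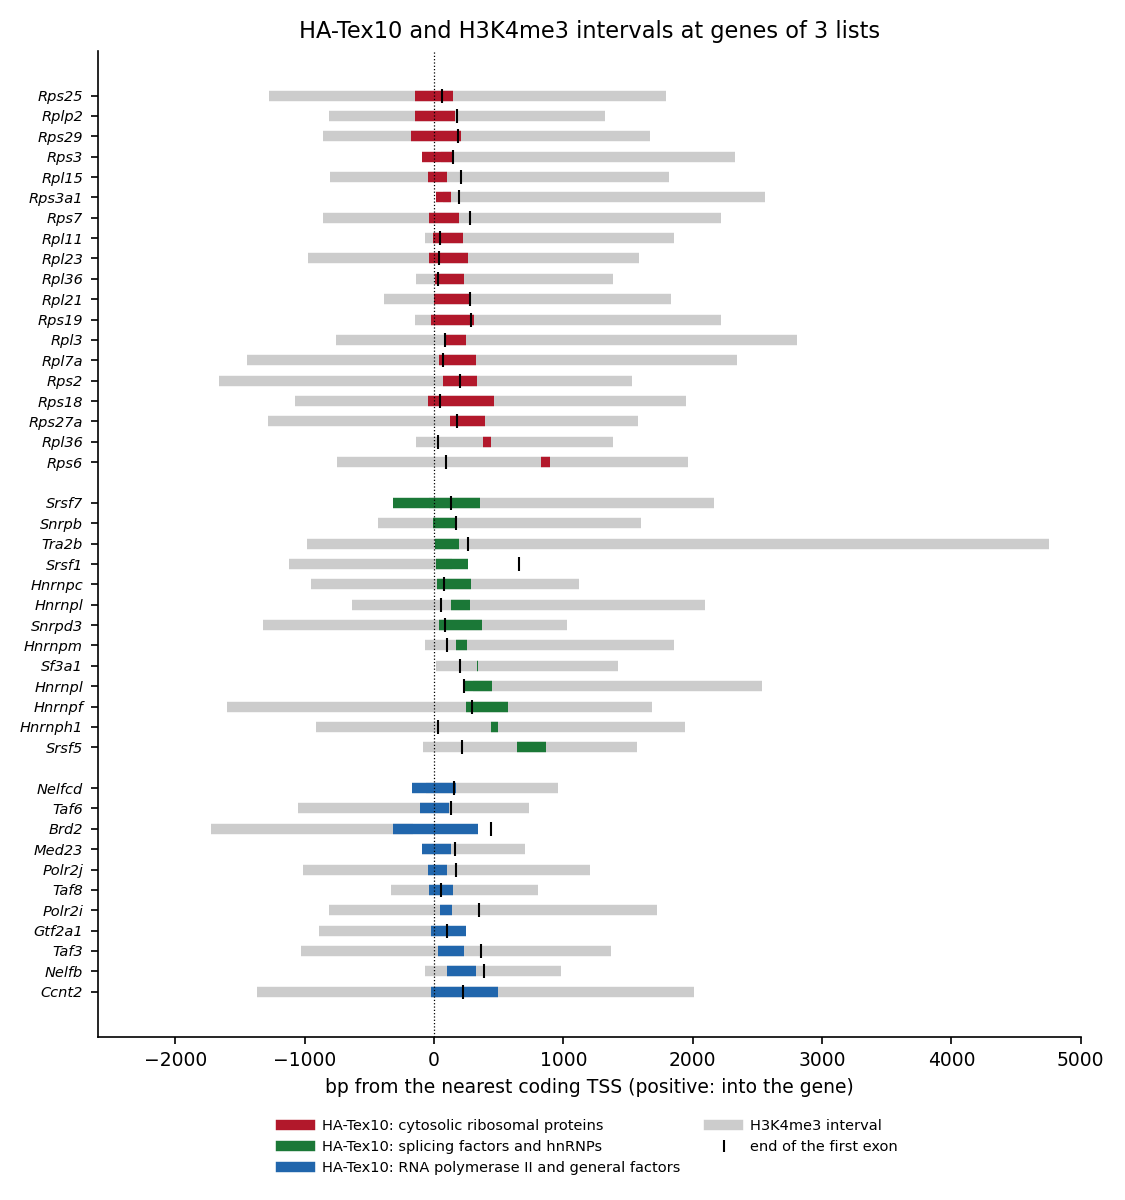
HA-Tex10 intervals (coloured) and the H3K4me3 intervals they meet (grey) at genes of 3 lists, in bp from the nearest coding TSS, with the end of the first exon as a black tick. Most ribosomal protein and RNA polymerase II intervals touch the TSS (11 of 19 and 8 of 11), while 2 of 13 splicing intervals do.

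Ribosome assembly, the process Tex10 serves, had 6 of 58 marked genes with a downstream interval (10.3%, 4.83 to 20.8%), a share whose interval starts at the background. The genes were Tex10 itself, Rrp1, Bysl, Mrto4, Ddx56 and Nip7. The interval at Tex10 (chr4:48473229-48473351, 123 bp) lay in the untranslated part of the first exon, from 71 to 193 bp, inside an H3K4me3 interval of 2297 bp. Of the genes of its known partners, Wdr18, Pelp1, Senp3 and Mdn1 had H3K4me3 but no HA-Tex10 interval within 1 kb. Nol9 had one of 302 bp whose centre was at -136 bp, but the gene was not in the upstream set either.

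The other lists lay near the background, each with few genes. Proteasome subunits had 3 of 35 (8.57%; Psma3, Psmb2 and Psmd7), replication and cell cycle 4 of 57 (7.02%; Orc5, Gmnn, Ccna2 and Cdk4), mitochondrial ribosomal proteins 3 of 72 (4.17%; Mrpl4, Mrps33 and Mrps36) and oxidative phosphorylation 2 of 62 (3.23%; Ndufv3 and Atp5a1). Translation factors had 1 of 46 (2.17%, Eif2s2) and chaperones 1 of 36 (2.78%, Hsp90ab1). The 95% interval of the mitochondrial ribosomal proteins (1.43 to 11.5%) does not meet that of the cytosolic ones.

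Regulators of development and of the germ line had 0 to 2 genes per list, with shares on both sides of the 4.79% background. Wnt negative regulators had 2 of 24 (8.33%), Btrc and Chd8, and Wnt ligands, receptors and effectors 1 of 43 (2.33%), Ctnnb1, the gene of beta-catenin, with its interval 525 bp into the gene in the first intron. Pluripotency factors had 1 of 27 (3.70%, Sall4, 62 bp), Polycomb complexes 1 of 28 (3.57%, Jarid2, 18 bp, in an H3K4me3 interval of 6190 bp), H3K4 methyltransferase complexes 1 of 14 (7.14%, Kmt2a, 346 bp), BMP and TGF-beta signalling 1 of 33 (3.03%, Id1, 458 bp, in coding sequence) and somatic and mesoderm genes 1 of 21 (4.76%, Msx1, 104 bp). Germ cell genes had 0 of 12, so that a share below 25% could have gone unseen.

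The labelled cell type was checked against marker genes. Of 9 marker genes of primordial germ cells and pluripotency, 7 had H3K4me3 within 1 kb of a TSS, the exceptions being Dppa3 and Nanos3. All 10 markers of other cells (such as T, Mixl1, Gata4 and Sox17) had it too, while in a list of genes of other tissues 1 of 24 was marked. None of the 19 markers held a downstream HA-Tex10 interval, and at a background of 4.79% a set of this size says nothing about the markers.

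Other properties of the 561 genes were compared with marked genes without HA-Tex10. A coding TSS on the other strand within 1000 bp upstream, the mark of a divergent promoter, was present at 113 genes (20.1%, 17.0 to 23.7%), at 10.3% of genes of the upstream set and at 11.8% of marked genes without HA-Tex10. Each interval was assigned to its nearest TSS, and the part of that choice in these counts was not tested. Small nucleolar RNAs, which guide the modification of ribosomal RNA and are cut from introns, were hosted by 16 of the genes (2.85%, 1.76 to 4.58%), 3.83% of the upstream genes and 1.49% (1.27 to 1.74%) of the others. Of those 16, 8 were ribosomal protein genes (Rpl21, Rpl23, Rpl3, Rpl7a, Rplp2, Rps2, Rps3 and Rps3a1), and the rest included Nop53, Rcc1, Chd8 and Gtf2a1. A start of C and 4 pyrimidines, typical of ribosomal protein messages, was present at 2.85% of the genes against 2.296%. The genes were short, with a median span of 19590 bp (17197 to 21526 bp) against 23240 bp and 27749 bp.

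Among the 10 widest intervals were those at Hist4h4 (774 bp), Hjurp (762 bp), 1700030J22Rik (745 bp), Gm2237 (728 bp), Bard1 (721 bp), Srsf7, Brd2, Etnk2 (655 bp) and Tnfaip1 (605 bp). Hist4h4 encodes histone H4, Hjurp the chaperone that loads the centromeric histone CENP-A, and Bard1 the partner of the repair ligase Brca1. The interval at Hist4h4 (chr6:136803878-136804651) ran from -236 to 537 bp over coding sequence of the first exon. Gm2237 is uncertain, with 83.2% of its words repeated. In all, 20 of the 576 intervals (3.47%) were mostly repeated, and these include members of gene families such as Duxf3, Zfp808, Zfp959, Srp54b and H2afx. At the other end 29 intervals were under 50 bp wide, and the narrowest, at 1700020L24Rik and Slc26a6, were 4 bp.

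At 15 genes there were 2 downstream intervals, and at 23 genes intervals of both sets. In 8 of the pairs one interval was in the first exon and the other in the first intron, as at Fat1 (centres 129 and 421 bp), Primpol (59 and 440 bp), Pdcl (4 and 388 bp) and Zfp36l1 (1 and 461 bp). All but 3 of the pairs lay in 1 H3K4me3 interval, the exceptions being Duxf3, Hnrnpl and P4hb. Genes with intervals of both sets included Sall4, Hsp90ab1, Rps2, Eif2s2 and Tardbp.

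Chromosome 8 stood apart. Of its 352 marked genes outside dense windows, 42 (11.9%, 8.95 to 15.7%) held a downstream interval, while the other chromosomes lay between 2.74% (chromosome 3) and 6.45% (chromosome 17). The upstream set had 61 intervals on chromosome 8 as well. Without it the share was 519 of 11371 genes (4.56%). Of the listed genes with an interval, 2 lie on it, Nip7 and Psmd7.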

How the data were processed

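The authors deposited interval lists for the whole series, without counts, scores or p-values, so the values used here are start and end positions. The submitters' processing notes name Bowtie2 2.3.4.3, SAMtools 1.9, MACS2 2.1.2, HOMER and the build mm10 (GRCm38). Their roles, the peak threshold, how input was used and how replicates were joined are not given in the sources used here, and a further deposited list of HA-Tex10 intervals was not used here.

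Intervals were set against 52092 TSS of protein-coding transcripts of GENCODE M21 on chromosomes 1 to 19. An interval's exon or intron came from the longest transcript at its nearest TSS. Where it met several H3K4me3 intervals, the one sharing most bases was taken. Marked genes had H3K4me3 within 1000 bp of a TSS, outside dense 1 Mb windows (at least 10 intervals of the HA-Tex10 list). Sequence values came from the central 200 bp. Intervals were called mostly repeated if over 50% of their 32-base words recurred in the genome. Shares carry Wilson 95% intervals and medians exact order-statistic 95% intervals. Python 3.11.15, numpy 2.4.6, scipy 1.17.1 and pandas 2.3.3 were used. The distance and strand of the assignment were tested on simulated intervals at isolated TSS only. The choice between nearby TSS was therefore not tested.

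The members and lists were chosen with earlier results of these data known. Genes named were those of the lists with an interval, the 10 widest (1 of them is not reported here), those nearest each limit and those with 2 intervals. Genes named for the YY1 motif, for small nucleolar RNAs, for repeats and for intervals of both sets were chosen after their values were seen.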

Additional observations from a re-analysis of the deposited data

How the results depend on the processing

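No paired analysis was possible because the 2 samples of an antibody share 1 list, which also left no replicate to drop. Each of 12 values was recomputed under 10 alternatives, and 2 of them also with another sequence window, 122 values in all. Of these, 97 stayed inside the 95% interval of the value reported, or within 1.5 times a count, and 25 moved. Dropping chromosome 8, keeping genes with 1 annotated TSS, the distance classes of the background and all alternatives of the splicing and RNA polymerase II shares were chosen after seeing the data.

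With HA-Tex10 intervals wider than the list's median there were 261 intervals with a median centre of 89 bp, 70.5% covered the TSS, 78.9% lay wholly inside H3K4me3, and the shares with an interval were 2.22% of marked genes, 16.7% of ribosomal protein, 8.47% of splicing and 7.27% of RNA polymerase II genes. With genes of 1 annotated TSS there were 176 intervals, with a median centre of 133.5 bp, 40.9% covering the TSS, 89.2% inside H3K4me3 and 25.6% in the first intron, and the splicing and RNA polymerase II shares were 10.5% and 4.76%. With transcripts of support level 1 the median centre was 138.5 bp, 44.2% covered the TSS and 34.9% were in the first intron. With the TSS of all annotated genes these were 91 bp and 55.5%, and 4.01% of marked genes held an interval. Dense windows kept gave 5.65% of marked genes, at least 50% coverage by H3K4me3 gave 88.0% wholly inside, and a 500 bp sequence window gave a GC content of 62.8% and YY1 in 5.73%. Leaving out intervals lowers their number, and a longer window can only raise a motif's share, both by construction. For the other changes, those with the choice of TSS among them, the cause was not tested.

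The lists allow no statement on occupancy or on differences between the samples, since they give neither depth nor height. A gene without an interval is a gene without a called interval at unknown depth.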
